A study of Mus musculus with 84 samples.

Results

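The comparison described here set the livers of mice given BI 456906 at 30 nmol/kg against the livers of mice given semaglutide at 20 nmol/kg. The members were chosen by their labels alone: 6 liver libraries of the BI 456906 30 nmol/kg group and 6 of the semaglutide 20 nmol/kg group, 12 of 42 liver libraries and of 84 libraries in all. Bulk RNA sequencing was used, and each library was taken as 1 mouse, since the titles give a group and a library number alone. For the semaglutide group the titles give a compound code, which was read as semaglutide. BI 456906 is a peptide that activates the receptor for glucagon (GCGR) as well as that for glucagon-like peptide-1 (GLP-1R), whereas semaglutide is a peptide that activates the GLP-1R alone. The question posed by the contrast was which liver transcripts differed between a dual agonist and a selective GLP-1R agonist. All groups, vehicle included, were male C57BL/6J mice with diet-induced obesity (DIO), single-housed on a diet with 60% of energy from fat, 22 weeks old when treatment began and dosed subcutaneously once a day for 30 days. The doses of the compounds were not matched, so receptor selectivity and dose cannot be told apart in the contrast. The vehicle livers (6 libraries) and the livers given BI 456906 at 20 nmol/kg (6 libraries) are quoted beside it, vehicle also through fold changes of each treated group over it.

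Glucagon acts on the hepatocyte through the GCGR, a receptor coupled to adenylyl cyclase. The cyclic AMP that results activates protein kinase A and the transcription factor CREB, and in the fasted liver this axis is known for raising glucose output, amino acid uptake and breakdown and the urea cycle, and for lowering glycolysis and lipogenesis. The GLP-1R is known mainly from pancreatic islets and the nervous system and is scarcely transcribed in hepatocytes. Both compounds lower food intake and body weight. The paper reports a significantly greater loss of body weight in the dual agonist group than in the semaglutide group of this contrast. The part of this difference in the liver transcripts was not tested, and liver transcripts of pair-fed animals were not analysed here.

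Sequencing depth was 41966174, 43682372 and 45955651 reads assigned to genes (lowest, median and highest) in the BI 456906 30 group and 21676902, 40440094 and 44367319 in the semaglutide 20 group. A pair of libraries stood apart. Library 77 of the semaglutide 20 group was the shallow one, and library 70 of the BI 456906 30 group held the outlying value in 16 of the 40 groups of 6 values in which 1 library lay far from the rest. Counts of calls are given with and without each. Where leaving out 1 library changed a call or moved a count by over 1.5 times, the value is often given, with the library's number. Not every such case is listed. Defining hepatocyte markers were abundant in every library, with a summed level of 92415 to 107412 TPM (transcript abundance scaled for gene length and library total) over 8 genes with BI 456906 30 and 86996 to 98985 with semaglutide 20. Of the other liver cell types, the summed Kupffer cell and macrophage markers (11 genes) ranged from 234 to 484 and from 275 to 446 TPM, and the stellate cell and fibroblast markers (11 genes) from 198 to 282 and from 189 to 279 TPM. The summed sinusoidal endothelial markers (8 genes) ranged from 237 to 255 and from 244 to 270 TPM. In bulk tissue, fewer cells of a type and less RNA per cell cannot be told apart.

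Of 15964 genes tested, 116 were called higher with BI 456906 30 than with semaglutide 20 and 213 were called lower, where a call needed a log2 fold change of at least 1 in either direction and a false discovery rate (FDR) of at most 0.05 by limma/voom. These 329 calls were 2.06% of the genes tested, 0.727% higher and 1.33% lower. At any size of change, 973 genes (6.09%) passed the FDR upward and 1198 (7.5%) downward, and 4486 genes had an unadjusted p under 0.05. The median log2 fold change over all genes tested was 0.01. The 6 values of one group lay wholly above or below the 6 of the other in 1067 genes (6.68%), among them 63 of the 116 called higher (54.3%) and 130 of the 213 called lower (61%). Many called genes were scarce, since 54 of those called higher and 78 of those called lower had a mean under 1 TPM in the group where they were higher. Without library 70 the contrast gave 314 calls, 279 of them among the 329, and without library 77 it gave 271, of which 258 were among the 329. With library size alone and no correction for composition, 651 genes passed the FDR upward and 1417 downward, so that the share of upward genes was 31.5% in place of 44.8%.

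**Figure D1:**
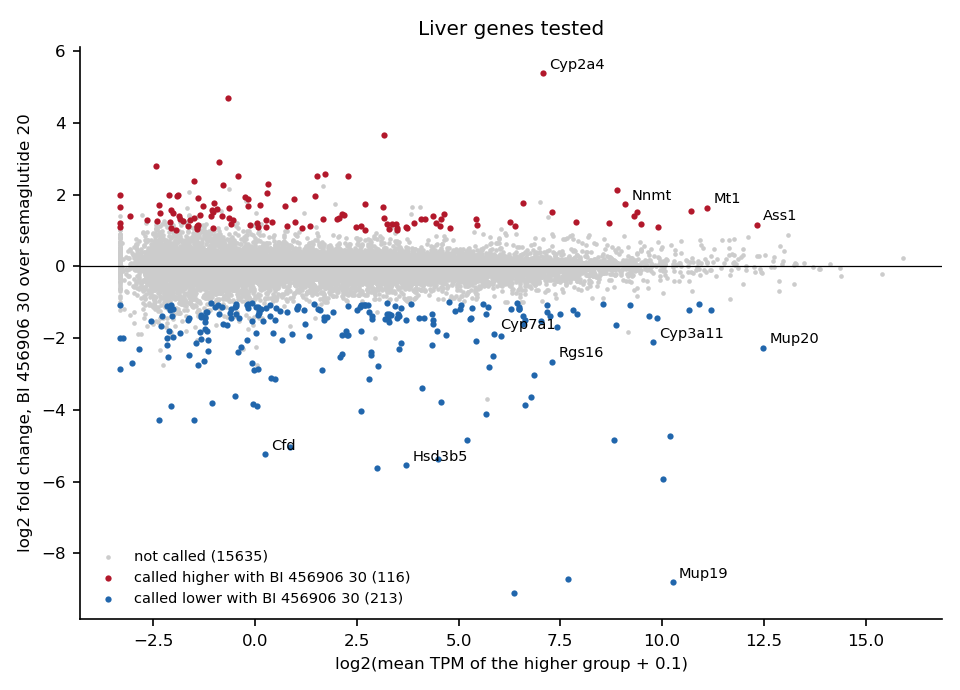
Each point is 1 of the 15964 liver genes tested. The horizontal axis is the log2 of the mean TPM (plus 0.1) in the group with the higher mean, and the vertical axis is the log2 fold change of BI 456906 30 over semaglutide 20. The 116 genes called higher (red) reach 5.39 for Cyp2a4, and the 213 called lower (blue) reach below -8 for several Mup genes, such as Mup19 at -8.79.

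Promoter sequences are shown for the genes at both ends of the contrast and for 3 of the 9 named genes whose window holds the amino acid response element. They come from RefSeq on GRCm38.p6 and run 5′ to 3′ on the gene's own strand, from 250 bases before the annotated start to 30 bases after it. A window was found for 119 of the named genes. Cyp2a4, a steroid hydroxylase with the largest rise, lies at chr7:26306942-26307221 (plus strand), and its near-identical neighbour Cyp2a5, a coumarin hydroxylase that did not pass the test, lies at chr7:26835089-26835368 (plus strand). The windows shared 274 bases and differed at 5 (98.2% identity), and capitals mark the bases that differ or have no partner.
Cyp2a4: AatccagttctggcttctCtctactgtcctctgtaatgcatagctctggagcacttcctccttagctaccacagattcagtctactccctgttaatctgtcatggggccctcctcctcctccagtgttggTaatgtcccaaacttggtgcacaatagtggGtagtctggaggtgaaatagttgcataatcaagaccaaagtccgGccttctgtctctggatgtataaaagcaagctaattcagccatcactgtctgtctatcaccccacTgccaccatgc
Cyp2a5: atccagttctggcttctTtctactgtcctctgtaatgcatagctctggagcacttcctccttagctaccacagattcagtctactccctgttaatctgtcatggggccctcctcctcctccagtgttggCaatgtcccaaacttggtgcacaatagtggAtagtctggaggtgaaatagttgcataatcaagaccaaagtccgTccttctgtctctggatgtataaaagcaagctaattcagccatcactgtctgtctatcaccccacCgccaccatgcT
Mup17 and Mup15, major urinary protein genes with the largest and the third largest fall, lie at chr4:61595803-61596082 (minus strand) and chr4:61439675-61439954 (minus strand). Their windows were identical at all 277 aligned bases, and capitals mark the 6 bases without a partner. Over the 28 pairs among the windows of 8 named Mup genes, identity over the aligned bases alone ran from 96% to 100% with a median of 97.8%, and up to 274 bases of a pair had no partner.
Mup17: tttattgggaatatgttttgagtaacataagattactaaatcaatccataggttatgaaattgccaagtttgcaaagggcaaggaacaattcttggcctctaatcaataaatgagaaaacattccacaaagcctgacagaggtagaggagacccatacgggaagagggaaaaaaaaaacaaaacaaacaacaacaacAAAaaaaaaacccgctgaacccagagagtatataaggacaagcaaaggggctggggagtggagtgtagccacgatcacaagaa
Mup15: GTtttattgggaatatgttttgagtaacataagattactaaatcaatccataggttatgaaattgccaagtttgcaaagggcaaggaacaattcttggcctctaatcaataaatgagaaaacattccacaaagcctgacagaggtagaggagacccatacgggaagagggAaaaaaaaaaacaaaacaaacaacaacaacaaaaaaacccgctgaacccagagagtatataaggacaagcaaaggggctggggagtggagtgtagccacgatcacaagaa
The amino acid response element, bound by ATF4, was searched on both strands as TGATGNAA. It is in capitals in the windows of Asns at chr6:7693180-7693459 (minus strand), Trib3 at chr2:152344031-152344310 (minus strand) and Got1 at chr19:43524576-43524855 (minus strand), of which Asns and Got1 were higher and Trib3 lower with BI 456906 30. The other named genes with these letters were Aqp9, Fgf21, Mup-ps16, Prok1, Slc1a4 and Ung. The letters occur in the window of 4.51% of all 27025 genes and of 2.94% of the 11411 tested genes with a window, in 4 of 70 genes called higher (5.71%) and in 9 of 146 called lower (6.16%).
Asns: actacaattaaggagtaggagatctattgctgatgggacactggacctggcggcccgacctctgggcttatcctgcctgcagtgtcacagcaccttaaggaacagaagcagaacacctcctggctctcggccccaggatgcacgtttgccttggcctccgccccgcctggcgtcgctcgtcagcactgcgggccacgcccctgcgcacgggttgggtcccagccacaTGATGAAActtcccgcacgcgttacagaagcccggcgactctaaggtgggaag
Trib3: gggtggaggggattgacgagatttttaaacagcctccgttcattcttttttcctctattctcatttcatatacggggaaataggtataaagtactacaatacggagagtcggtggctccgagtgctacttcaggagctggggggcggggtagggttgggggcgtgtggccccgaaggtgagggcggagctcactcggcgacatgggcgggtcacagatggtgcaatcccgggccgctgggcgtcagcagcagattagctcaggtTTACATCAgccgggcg
Got1: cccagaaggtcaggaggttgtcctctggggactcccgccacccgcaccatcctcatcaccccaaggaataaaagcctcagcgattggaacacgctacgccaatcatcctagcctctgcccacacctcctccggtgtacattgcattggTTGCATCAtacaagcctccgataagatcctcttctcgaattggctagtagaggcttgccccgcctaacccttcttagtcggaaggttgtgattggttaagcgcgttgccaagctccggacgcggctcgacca
The full cyclic AMP response element TGACGTCA, the site of CREB, was in 2.03% of all windows and 3.37% of those of tested genes, in 1 of the 70 and in 1 of the 146, and in none of the named genes. Its core TGACG, which the full element contains, was in 23% of all windows, 33.4% of those of tested genes, 24.3% of the windows of genes called higher and 17.8% of those called lower. The STAT5 site TTCNNNGAA was in 9.55% of all windows, 8.38% of those of tested genes, 2 of the 70 and 10 of the 146. The E-box CACGTG was in 8.09% of all windows, 11.3% of those of tested genes, 9 of the 70 and 9 of the 146. Such letters describe a window and do not show that a factor binds there.

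Several highly expressed genes of amino acid breakdown differed. Serine dehydratase, cytosolic aspartate aminotransferase, liver glutaminase and ornithine aminotransferase were all more than doubled on the fitted scale, with no overlap between the groups. Sds, which turns serine into pyruvate and ammonia, stood at 566, 638 and 703 TPM (lowest, median and highest of 6 mice) with BI 456906 30 and at 191, 227 and 386 TPM with semaglutide 20. The log2 fold change was 1.40 ± 0.25 (SE, n = 6 and 6, FDR 0.00013, limma/voom). Got1, the aspartate aminotransferase, stood at 555, 700 and 756 TPM against 172, 212 and 374 TPM, a log2 fold change of 1.5 ± 0.28 (FDR 0.000331). The semaglutide 20 values of Sds and Got1 were highest in the same mouse, library 76, and still below every BI 456906 30 value. Gls2, which releases ammonia from glutamine in periportal hepatocytes, stood at 353, 398 and 544 TPM against 151, 175 and 254 TPM. Its log2 fold change of 1.22 ± 0.12 had an FDR of 4.66e-09. Oat, which converts ornithine to glutamate semialdehyde, stood at 607, 729 and 793 TPM against 256, 312 and 452 TPM, a log2 fold change of 1.18 ± 0.13 (FDR 4.76e-08). Against the shared vehicle livers, whose medians were 177 TPM for Gls2 and 481 TPM for Oat, the Oat level was above vehicle with BI 456906 30 (log2 fold change 0.52, FDR 0.000877) and below it with semaglutide 20 (-0.66, FDR 7.47e-05).

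The list counts here and below are to be read beside the shares over all genes tested, 6.09% higher and 7.5% lower at FDR 0.05. As lists, the breakdown of serine, glycine and threonine had 4 genes higher and 3 lower of 13 tested at FDR 0.05, with a median log2 fold change of -0.22. The direct dehydratases Sds and Sdsl (1.32, FDR 0.000162), the peroxisomal aminotransferase Agxt (0.88, FDR 1.15e-05) and the glycine decarboxylase Gldc (0.52) rose, while the glycine cleavage partners Amt (-0.33) and Gcsh (-0.29) and the sarcosine-pathway enzyme Dmgdh (-0.32) fell. The 3 falls became 0 without library 71, 1 without library 77 or 78 and 5 without library 74. Gldc, Amt, Gcsh and Dmgdh, like other list members outside the naming rule, were named after their values were seen. Glutamine, glutamate, aspartate and proline breakdown had 4 higher and 1 lower of 13 (median 0.14), with Glud1, glutamate dehydrogenase, at only 0.19 and the asparaginase Asrgl1 at -0.32, a fall that no gene of the list showed without library 68, 69, 71, 72, 75, 76, 77 or 78. Aromatic amino acid and histidine breakdown had 5 higher and none lower of 12 (median 0.26), and 3 higher without library 74 or 75. Hal, histidine ammonia-lyase, rose by a log2 fold change of 0.77 (FDR 0.00367). Ftcd, which works below Hal, was at 0.28 (FDR 0.0176, and 0.06 without library 74), and Hgd (0.24) and Uroc1 (0.33) passed too. Tat, tyrosine aminotransferase, a classic glucagon-responsive gene, did not pass, at a log2 fold change of 0.75 and FDR 0.0538, although all 6 BI 456906 30 values (2118 to 3362 TPM) lay above all 6 semaglutide 20 values (1271 to 2083 TPM). Its FDR ranged from 0.0408 to 0.116 when 1 library was left out. It was over 0.05 without library 67, 68, 69, 71, 72, 73, 75, 77 or 78, and passed without any other 1.

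Branched-chain and lysine breakdown showed little difference, with 2 genes higher and 2 lower of 21 and a median of -0.03. Aass, the first enzyme of lysine breakdown, rose from a median of 155 TPM with semaglutide 20 to 302 TPM with BI 456906 30 (log2 fold change 0.86, FDR 0.0029), and Dbt, a subunit of the branched-chain dehydrogenase, was at 0.37. Hibch (-0.34) and Acad8 (-0.15), valine-pathway enzymes, fell. The count of falls was 4 without library 74 and 1 without library 69, 70, 71, 72, 73, 76 or 78. Bckdha, the catalytic subunit of the branched-chain dehydrogenase, had a log2 fold change of 0.06 with a 95% interval of -0.05 to 0.18, so a difference of the size seen for Sds lay outside the interval.

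The urea cycle, which disposes of the ammonia, had 4 genes higher and 2 lower of 11, and 1 lower without library 71. Ass1, argininosuccinate synthase, stood at 4967, 5133 and 5342 TPM with BI 456906 30 and at 1988, 2246 and 3340 TPM with semaglutide 20, where the vehicle median was 2066 TPM. The groups did not overlap, and the log2 fold change was 1.16 ± 0.14 (FDR 3.93e-07). Reads of Ass1 can be shared with its processed copy Gm5424, which moved alike (1.14) at a level of 40.8 to 46 TPM against 17.2 to 26.6 TPM. The mitochondrial ornithine carrier Slc25a15 (0.76, FDR 2.63e-05), arginase Arg1 (0.73) and argininosuccinate lyase Asl (0.60) rose as well. Glul, glutamine synthetase of pericentral hepatocytes, fell by 0.59 on the log2 scale (FDR 8.21e-05), with 392 to 512 TPM below 592 to 729 TPM, and Car5a, the mitochondrial carbonic anhydrase, was at -0.66.

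Of 20 genes of methyl-group and sulfur amino acid metabolism, 5 were higher and 3 lower, and the lower count was 1 without library 67, 76 or 77 and 0 without library 78. Gnmt, glycine N-methyltransferase, stood at 3328, 3500 and 3712 TPM against 1841, 1994 and 2368 TPM without overlap, a log2 fold change of 0.77 ± 0.11 (FDR 1.24e-05). Mat1a, which makes S-adenosylmethionine, rose by 0.83 (FDR 1.45e-05) and Cbs, the first enzyme of transsulfuration, by 0.75 (FDR 2.27e-06). Cth (0.60) and Aldh1l1 (0.34) also passed. The betaine methyltransferases Bhmt (-0.90) and Bhmt2 (-0.37) and choline dehydrogenase Chdh (-0.28), which feed methyl groups back to homocysteine, fell.

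Nnmt, which methylates nicotinamide with S-adenosylmethionine (chromosome 9, 48591877 to 48605153 in GRCm38, minus strand), stood at 468, 545 and 651 TPM with BI 456906 30 and at 107, 165 and 248 TPM with semaglutide 20. The lowest BI 456906 30 value was above the highest semaglutide 20 value, and the log2 fold change was 1.74 ± 0.29 (FDR 7.37e-05). The vehicle median was 99.3 TPM, and the mean with BI 456906 at 20 nmol/kg, the dose equal to that of semaglutide, was 385 TPM. In the tryptophan and NAD list, 2 genes were higher and 3 lower of 16, with 1 higher without library 67, 68, 71, 72, 75, 77 or 78 and 5 lower without library 70. Acmsd, which draws tryptophan carbon away from NAD, was at 0.72. Aox3, an aldehyde oxidase that can oxidise methylated nicotinamide, fell by 1.19 on the log2 scale (FDR 9.33e-06), and the salvage enzymes Nampt (-0.31) and Naprt (-0.31) fell slightly.

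Of 18 amino acid transporters, 8 rose and none fell (median 0.21), and 1 fell without library 70. Slc7a2, the cationic amino acid carrier that brings arginine into hepatocytes, stood at 223, 228 and 276 TPM against 78.9, 104 and 121 TPM, with a vehicle median of 34.2 TPM. Its log2 fold change was 1.24 ± 0.19 (FDR 1.45e-05). Slc3a1, the heavy subunit of a cystine carrier, rose by 0.92 (FDR 0.000257), and Slc1a4, a neutral amino acid carrier at about 1 TPM, by 1.29 (FDR 0.00043). The glutamine carrier Slc38a3 rose by 0.47 and the mitochondrial glutamate carrier Slc25a22 by 0.85.

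**Figure D2:**
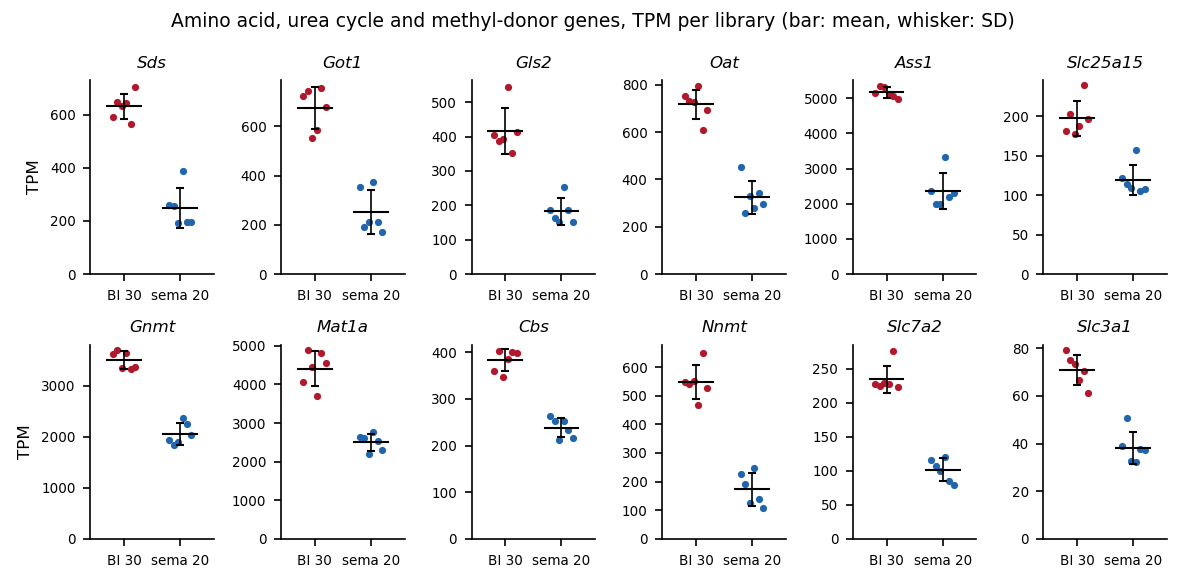
TPM of 12 genes of amino acid breakdown, the urea cycle, methyl-group metabolism and transport, 1 point per liver library (BI 30, BI 456906 30 nmol/kg; sema 20, semaglutide 20 nmol/kg; n = 6 each), with the mean as a bar and the SD as a whisker on axes that start at 0. In each of the 12 panels every BI 456906 30 point lies above every semaglutide 20 point, as for Ass1 with 4967 to 5342 TPM above 1988 to 3340 TPM.

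Of 19 tested genes of the ATF4 response and serine synthesis, 5 rose and 3 fell (median 0.23). Mthfd1l, a mitochondrial folate enzyme, stood at 1.49 to 2.54 TPM against 0.36 to 0.68 TPM, a log2 fold change of 1.89 ± 0.26 (FDR 3.32e-06). Asns, asparagine synthetase, rose by 2.57 ± 0.71 (FDR 0.0128), with 0.57, 2.98 and 5.51 TPM against 0.07, 0.88 and 1.31 TPM. The groups overlapped for Asns, because library 70 held the lowest BI 456906 30 value. Atf4 (0.30), Atf5 (0.40) and the seryl-tRNA synthetase Sars (0.19) rose by little. Trib3, a pseudokinase induced by ATF4, fell by 0.77 on the log2 scale (FDR 0.000583), and Chac1 (-0.74) and Eif4ebp1 (-0.26) fell too. None of 19 endoplasmic reticulum chaperones passed in either direction by limma/voom (1 upward without library 70, 71 or 74 and 1 downward without library 76), and Hspa5 was at 0.10 (FDR 0.717).

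Gcgr, which encodes the glucagon receptor, stood at 160, 166 and 184 TPM with BI 456906 30, wholly below 204, 216 and 231 TPM with semaglutide 20. The log2 fold change was -0.35 ± 0.07 (FDR 0.0006), and the vehicle median was 227 TPM. Glp1r had 0 to 4 reads per library in both groups and was not tested, and a count of 0 allows up to 3 reads in a library. In the list of receptors, cyclic AMP effectors and immediate targets, 6 genes rose and 6 fell of 25 tested (median 0.11). Among effectors, the stimulatory G protein Gnas (-0.20), the cyclase Adcy9 (-0.50) and the catalytic subunit Prkaca (-0.23) fell, and the regulatory subunit Prkar1a (0.20) and the phosphodiesterase Pde4b (0.78) rose. Among targets, the coactivator Ppargc1a, which drives fasting gene expression, stood at 5.09, 7.44 and 7.68 TPM against 3.28, 4.23 and 4.59 TPM (log2 fold change 0.73, FDR 5.71e-05). Sik1, a kinase that dampens CREB signalling, rose by 1.22 (FDR 0.00139), and Crem (0.42) and Crtc2 (0.23) by less.

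Rgs16, a regulator that shortens G protein signalling, showed the clearest fall of that list. It stood at 15.5, 25.8 and 34.4 TPM with BI 456906 30 and at 111, 157 and 213 TPM with semaglutide 20, a log2 fold change of -2.65 ± 0.26 (FDR 4.66e-09). The vehicle median of 53.9 TPM lay between the groups, so that Rgs16 was below vehicle with BI 456906 30 (-1.20, FDR 0.000103) and above it with semaglutide 20 (1.45, FDR 2.73e-05). Arrdc3, an arrestin-domain protein, fell by 1.81 on the log2 scale (FDR 5.72e-05), from 13 to 34.6 TPM down to 5.57 to 7.99 TPM.

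None of 16 genes of gluconeogenesis and glucose output passed upward by limma/voom (1 without library 70, 71 or 76) and 3 passed downward (median -0.03). Pck1, the phosphoenolpyruvate carboxykinase induced by glucagon, had 2485, 3177 and 3322 TPM against 2476, 2629 and 2906 TPM, a log2 fold change of 0.20 (FDR 0.471) with a 95% interval of -0.15 to 0.55. Both groups were above the vehicle median of 933 TPM, with log2 fold changes over vehicle of 1.52 and 1.32. The pyruvate carboxylase Pcx (-0.37), the glycerol channel Aqp9 (-0.48, FDR 0.000727) and the glucose carrier Slc2a2 (-0.43) fell. The FDR of Slc2a2 ran from 0.0533 to 0.0627 when any of libraries 71, 72, 76 or 78 was left out.

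In the glycolysis list 9 of 24 genes tested fell, 1 rose and 14 did not pass (median -0.17). The riser was the lactate dehydrogenase Ldha (0.34), and no gene rose without library 69. Pklr, the liver pyruvate kinase, stood at 47.4, 56.2 and 87 TPM with BI 456906 30 against 122, 141 and 214 TPM, a log2 fold change of -1.38 ± 0.19 (FDR 3.68e-06), and the vehicle median was 278 TPM. Pdk1, which restrains pyruvate dehydrogenase, fell by 0.87 on the log2 scale (FDR 6.38e-07), and the transketolase Tkt by 0.48. Mlxipl, the carbohydrate-sensing transcription factor ChREBP, was at -0.66. Of 15 glycogen genes, 6 fell, none rose and 9 did not pass (median -0.33), and 1 rose without library 74. The falls were the phosphorylase Pygl (-0.63, FDR 0.000189), the branching enzyme Gbe1 (-0.54), the glycogen tether Stbd1 (-0.64), the phosphorylase kinase subunits Phka2 (-0.48) and Phkb (-0.20), and the phosphatase subunit Ppp1r3b (-0.63). Gys2, liver glycogen synthase, was at -0.06 (FDR 0.726).

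Of 22 genes of lipogenesis and triglyceride synthesis, 7 fell and none rose (median -0.28). Elovl6, which lengthens palmitate, stood at 4.37, 5.88 and 9.99 TPM against 11.7, 17.3 and 22.4 TPM, a log2 fold change of -1.45 ± 0.27 (FDR 0.000261) without overlap. Acss2, which makes cytosolic acetyl-CoA, was at -1.12 (FDR 0.00129), and at -0.96 without library 78. Me1, a source of NADPH, was at -0.52, Scd1 at -1.21 and Acacb at -0.67. Fasn, fatty acid synthase, was at -0.56 (FDR 0.0312) and missed the threshold without library 67, 68, 71, 72, 76 or 78 (FDR 0.0517 to 0.126).

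Lipid droplet genes had 5 falls and 1 rise of 20 tested, with 3 falls without library 68, 75 or 78 and 3 rises without library 70. Fitm1, a droplet-forming protein of the endoplasmic reticulum, stood at 16.2 to 22.7 TPM against 32.3 to 67.6 TPM, and at a median of 99.6 TPM with vehicle (log2 fold change -1.32, FDR 8.35e-06). Cideb (-0.23), Cidea (-4.03), Mogat1 (-1.21) and Pparg (-1.21) fell. Plin5, which ties droplets to mitochondria, rose from 140 to 191 TPM up to 199 to 331 TPM (0.81, FDR 0.00731), and Plin2 was at 0.50 (FDR 0.0833). Fatty acid oxidation had 5 genes higher and 5 lower of 32 (median 0.07). The higher count was 2 without library 68, 72, 75 or 78 and 3 without library 69 or 76, and the lower count was 3 without library 78. The bifunctional peroxisomal enzyme Ehhadh rose by 1.11, with Cyp4a14 (0.75), Cyp4a31 (0.74), Cpt2 (0.29) and Acadl (0.26, FDR 0.00471). The fatty acid carrier Slc27a2 (-0.40), the binding protein Fabp1 (-0.50, FDR 0.00668), Vnn1 (-0.65) and Hadh (-0.27) fell. Cpt1a, the gate to mitochondrial oxidation, was at -0.03 with a 95% interval of -0.20 to 0.15.

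Cholesterol synthesis rested on few libraries. Fdps (-1.07), Fdft1 (-0.69) and Nsdhl (-0.90) were the 3 genes of 25 that passed, all downward (median -0.33). No gene of the list fell without library 77 or 78, 1 fell without library 70 or 75, and 5 fell without library 73. For Fdps the FDR was 0.0517 to 0.0805 without library 70, 75, 77 or 78, for Nsdhl 0.0614 to 0.105 without the same libraries, and for Fdft1 0.0598 to 0.106 without library 68, 72, 77 or 78. With 1 library left out, the log2 fold change of Nsdhl ran from -1.04 to -0.62.

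Of 26 bile acid genes tested, 10 fell, none rose and 16 did not pass (median -0.35), and 9 fell without library 70 and 9 without library 77. Cyp7a1, the rate-limiting enzyme of bile acid synthesis, stood at 11.4, 15.3 and 21 TPM with BI 456906 30 and at 30.4, 55 and 96.7 TPM with semaglutide 20. The groups did not overlap, and the log2 fold change was -1.87 ± 0.34 (FDR 0.000246). The vehicle median was 50 TPM and the mean with BI 456906 at 20 nmol/kg was 53.6 TPM, so the low level was seen at 30 nmol/kg and not in the mean at 20 nmol/kg. Cyp8b1, which sets the cholic acid share, stood at 151, 287 and 416 TPM against 549, 597 and 632 TPM (-1.07, FDR 1.53e-06), and at -0.89 without library 70, which held the lowest value. Cyp27a1, of the alternative pathway, was at -0.65 (FDR 0.00011), and the conjugating enzyme Baat at -0.38 (FDR 6.51e-05). The uptake carriers Slc10a1 (-0.39), Slco1b2 (-0.64) and Slco1a1 (-3.04), the exporters Abcb11 (-0.42) and Abcc3 (-0.73) and the bile acid receptor Nr1h4 (-0.19) made up the rest.

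**Figure D3:**
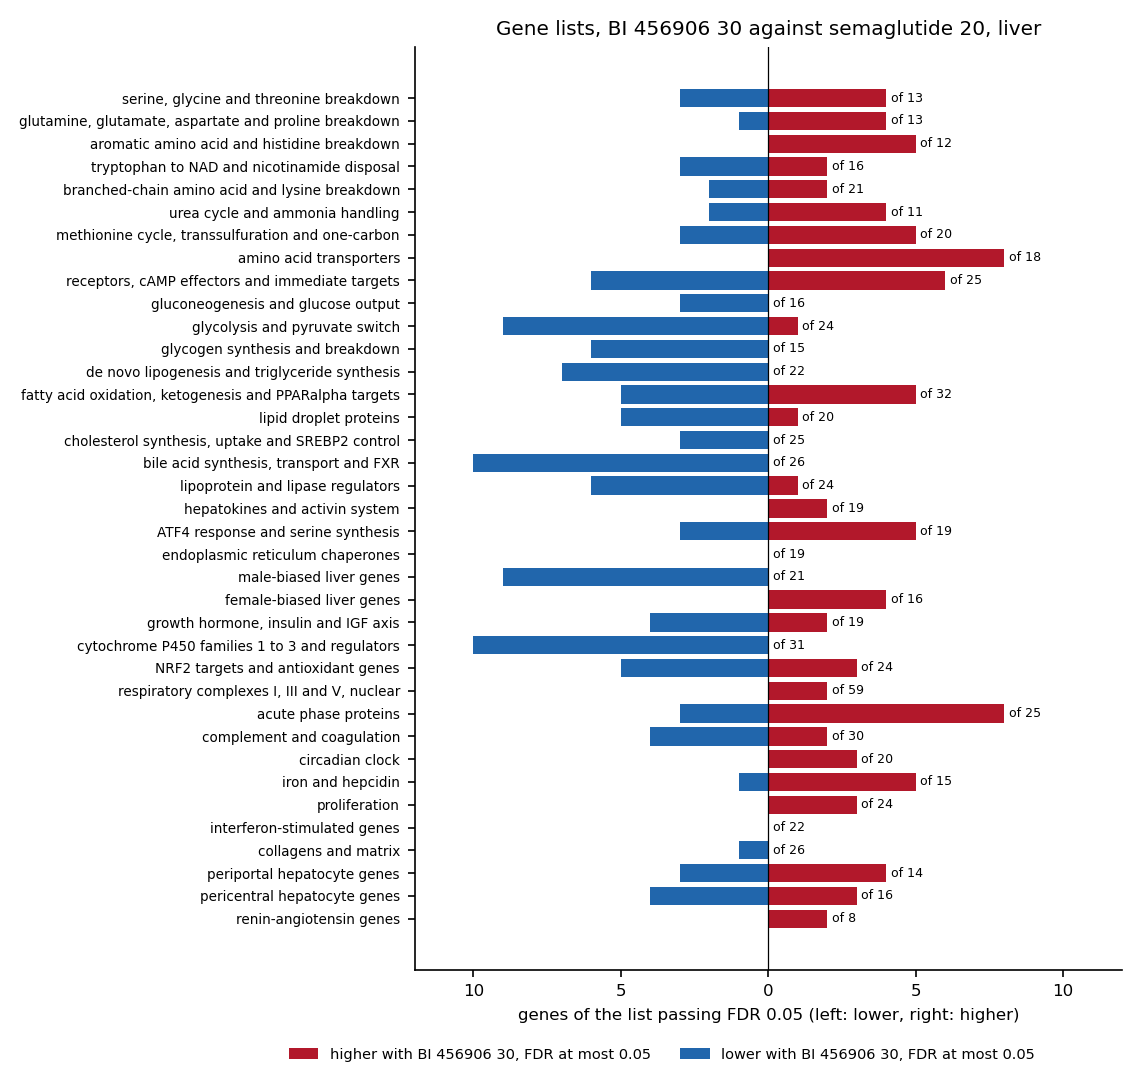
Number of genes that passed FDR 0.05 in each of the 37 lists, higher with BI 456906 30 to the right (red) and lower to the left (blue), with the number of genes tested beside each bar. Amino acid transporters are to the right alone (8 of 18), and bile acid, glycogen, lipogenesis and male-biased genes are to the left alone (10 of 26, 6 of 15, 7 of 22 and 9 of 21). Over all genes tested, 6.09% passed upward and 7.5% downward.

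Lipoprotein genes had 6 falls and 1 rise, the acyltransferase Lcat (0.23), of 24 tested, and no rise without library 75 or 76. Pltp, the phospholipid transfer protein, was at -1.52 (FDR 0.000182), the receptor Scarb1 at -0.42 and Apoa2 at -0.28. Apoa4 was at -1.04 (FDR 0.012) and at -0.90 without library 70, and the groups overlapped. Hepatokine genes had 2 rises and no fall of 19, and 1 fall without library 70. Lepr, the leptin receptor, stood at 15.3, 23.2 and 34.5 TPM against 6.8, 10.5 and 14.7 TPM and at a vehicle median of 1.75 TPM, a log2 fold change of 1.32 ± 0.25 (FDR 0.000363). Ahsg, fetuin-A, rose by 0.43 (FDR 6.46e-05). Fgf21, the hepatokine linked to glucagon action, had 27.6, 40.9 and 50.4 TPM against 20.8, 32.6 and 41.8 TPM, which overlapped. Its log2 fold change of 0.31 (FDR 0.403) had a 95% interval of -0.16 to 0.77.

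Most of the largest falls of the contrast were in genes that male mouse livers express above female ones. Of 21 male-biased genes tested, 9 fell and none rose (median -1.38), against 7 without library 70 and 8 without library 77. The major urinary protein (Mup) genes of chromosome 4 encode pheromone carriers secreted by the liver. Their copies are nearly identical, so reads can be shared and single copies are uncertain. The 22 listed Mup genes summed to 4104, 7916 and 9297 TPM with BI 456906 30 and to 14137, 17702 and 28797 TPM with semaglutide 20, a ratio of means of 2.64, with 8727 to 19200 TPM in vehicle livers. Of the 17 tested, 15 were called lower and none higher. Mup20, the pheromone darcin, stood at 236, 1089 and 3165 TPM against 3451, 5261 and 10196 TPM (-2.26, FDR 0.000113), with the lowest value in library 70. Mup19 stood at 4.38, 6.81 and 11.3 TPM against 901, 1061 and 1984 TPM, a log2 fold change of -8.79 ± 2.01 (FDR 0.00278).

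For some Mup genes the size of the fall differed between the read counts and TPM, and the part of shared reads in this was not tested. For Mup11 the log2 fold change was -5.94 (FDR 0.00605) on the read counts and -1.76 on log2(TPM + 1), with 127, 337 and 369 TPM against 746, 874 and 1793 TPM, and it was -5.35 without library 70. Mup18 was at -5.61 on the read counts, while its TPM values overlapped. The remaining Mup genes among the largest falls were Mup17 (-9.10), Mup15 (-8.72), Mup14 (-4.85), Mup9 (-4.84), Mup7 (-4.72) and the pseudogene Mup-ps16 (-5.02). Mup17 and Mup15 missed the threshold without library 67, 68, 69, 70, 71, 72 or 75 (FDR 0.0514 to 0.0757 and 0.0507 to 0.0775). Mup14 and Mup7 missed it without any of these or library 73 (FDR 0.0525 to 0.0731 and 0.0508 to 0.0599), and Mup7 was at -4.03 without library 70.

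Cyp4a12a, a male-biased arachidonic acid hydroxylase, stood at 0.21, 4.18 and 8.51 TPM against 29.7, 44 and 92.6 TPM without overlap, a log2 fold change of -4.11 ± 0.69 (FDR 7.03e-05) and of -3.31 without library 70. Together with its close copy Cyp4a12b (-2.0, FDR 0.154) the sum was 0.24 to 13.1 TPM against 33.1 to 106 TPM. Hsd3b5, a steroid reductase, was at -5.54 (FDR 0.0314), at -6.14 without library 68, and over the threshold without library 67, 68, 69, 71 or 72 (FDR 0.0561 to 0.0686). Cyp2d9, a testosterone hydroxylase, was at -1.38 (FDR 2.19e-05), Mup21 at -1.32, Selenbp2 at -3.87 and the carrier Slco1a1 at -3.04. Selenbp1, from which reads of Selenbp2 cannot be fully separated, was at -0.12 (FDR 0.512).

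Female-biased genes had 4 rises and no fall of 16 tested (median 0.63), and 3 rises without library 70 and 1 fall without library 73. Cyp2a4 stood at 44.2, 103 and 346 TPM with BI 456906 30 against 0.23, 1.9 and 25.3 TPM with semaglutide 20 and a vehicle median of 4.21 TPM. The groups did not overlap, although library 70 held the highest value of one and library 78 that of the other. The log2 fold change was 5.39 ± 1.15 (FDR 0.00138), and 6.06 without library 78 and 5.06 without library 70. Cyp2a5 was at 0.40 (FDR 0.247), and the sum of both was 254, 357 and 831 TPM against 145, 209 and 310 TPM, next to 280 to 553 TPM in vehicle livers. Cux2, a female-biased repressor, rose by 3.65 (FDR 0.0013) with overlapping groups, and library 70 held its highest value at 24 TPM. Cyp17a1, the 17-alpha-hydroxylase, stood at 138, 153 and 188 TPM against 36.5, 54.3 and 92.9 TPM (1.52, FDR 0.000393), and the magnesium carrier Nipal1 was at 0.77.

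**Figure D4:**
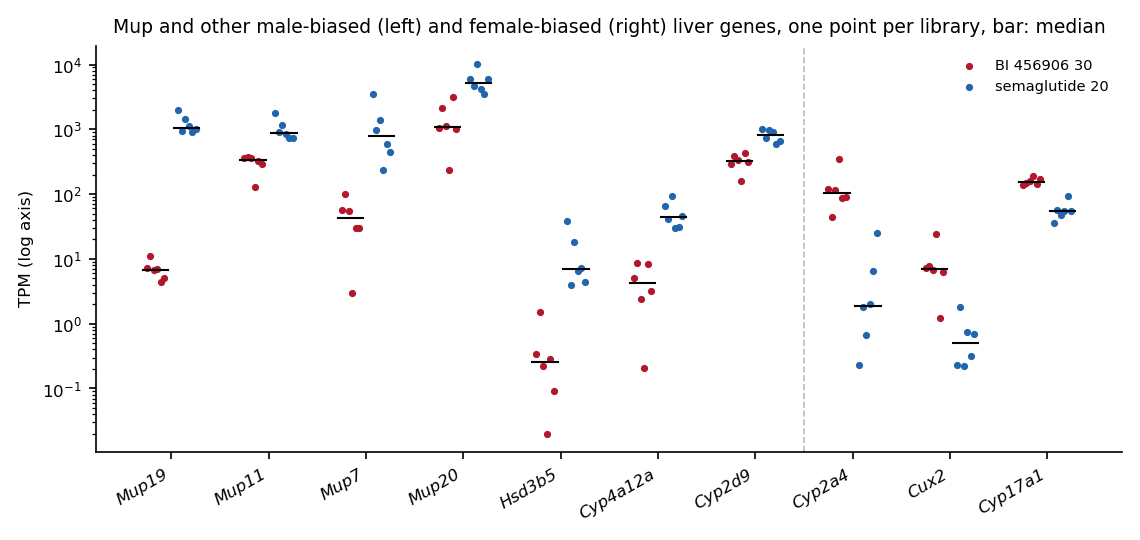
TPM on a log axis for 4 Mup genes and 3 further male-biased genes (left of the dashed line) and 3 female-biased genes (right), 1 point per liver library and the median as a bar, BI 456906 30 in red and semaglutide 20 in blue (n = 6 each). For Mup19 the red points (4.38 to 11.3 TPM) lie far below the blue (901 to 1984 TPM), and for Cyp2a4 the red points (44.2 to 346 TPM) lie above the blue (0.23 to 25.3 TPM).

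Sex-biased liver genes are known to depend on the pattern of growth hormone release, read in hepatocytes through STAT5B. The growth hormone, insulin and IGF list had 2 genes higher and 4 lower of 19, and the lower count was 1 without library 77 and 2 without library 68 or 78. Igf1 rose by 0.50 (FDR 0.0116) and Prlr, the prolactin receptor, by 0.91 (FDR 0.00305), and Prlr by up to 1.06 with 1 library left out. Ghr (-0.32), Stat5a (-0.40), Stat5b (-0.44) and the insulin receptor adaptor Grb14 (-0.46, FDR 0.000353) fell.

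Of 31 cytochrome P450 genes of families 1 to 3 and their regulators, which metabolise drugs and steroids, 10 fell, none rose and 21 did not pass (median -0.27), and 1 rose without library 70. Cyp2f2, a periportal enzyme, stood at 69.5, 168 and 176 TPM against 393, 460 and 529 TPM, a log2 fold change of -1.64 ± 0.16 (FDR 4.66e-09) without overlap, and library 70 held the lowest value. Cyp2d40 was at -1.18 (FDR 1.14e-05), Cyp2c50 at -0.87 (FDR 4.03e-05) and Cyp3a11, the main steroid and drug oxidase, at -2.12 with overlapping groups. Cyp1a2 was at 0.17 (FDR 0.474). Ugt1a9, a glucuronosyltransferase, went the other way, from 17.6 to 40.9 TPM with semaglutide 20 up to 77.8 to 143 TPM (1.78 ± 0.26, FDR 7.23e-06), with a vehicle median of 59.6 TPM between the groups. NRF2 and antioxidant genes had 3 higher and 5 lower of 24. The higher count was 1 without library 68, 69, 72, 75, 76, 77 or 78, and the lower count was 3 without library 71. Gstm2 rose by 0.86 (FDR 0.00121), Cat, catalase, fell by 0.39 on the log2 scale (FDR 4.08e-05), Ces2g was at -0.79 and Nqo1 at 0.15 (FDR 0.685). Osgin1 was at -0.99 (FDR 0.0394, and 0.0506 to 0.094 without library 67, 68, 69, 71, 72, 73, 75, 77 or 78). Its log2 fold change ran from -1.18 to -0.89 with 1 library left out.

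Of 14 periportal genes, 4 rose (Hal, Sds, Gls2 and Ass1) and 3 fell (Cyp2f2, Apoa4 and Cdh1 at -0.79), with a median of 0.04. Of 16 pericentral genes, 3 rose (Oat, Slc1a2 at 0.55 and Lhpp at 0.46) and 4 fell (among them Glul, Cyp7a1 and Cyp2e1 at -0.39), with a median of -0.22.

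Of 25 acute phase genes, 8 were higher and 3 lower (median 0.36). The zinc-binding metallothionein Mt1 stood at 1606, 2327 and 2681 TPM against 514, 651 and 1119 TPM and a vehicle median of 259 TPM, a log2 fold change of 1.64 ± 0.36 (FDR 0.00164). Mt2 moved alike (1.55, FDR 0.0268), and its FDR was 0.0537 to 0.0582 without library 68, 75, 76 or 77. Haptoglobin Hp rose by 0.58 (FDR 4.79e-05) and C3 by 0.52 (FDR 0.000261). Ceruloplasmin Cp (-0.41, FDR 2.49e-06), Crp (-0.43) and Orm3 (-2.88) fell. Saa1, a marker of acute inflammation, was spread over 237 to 2139 TPM and 144 to 2320 TPM and did not pass (0.55, FDR 0.635). Complement and coagulation had 2 genes higher, Vtn (0.30) and F2 (0.18), and 4 lower, among them F13b (-0.42, FDR 0.000214), Klkb1 (-0.30) and Mbl1 (-0.32), of 30. These were 6.67% and 13.3% of the list, beside 6.09% and 7.5% of all genes tested. The lower count was 2 without library 71, 72 or 78 and 1 without library 73.

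Iron genes had 5 rises and 1 fall of 15, and 3 rises without library 75. Hamp2 rose by 2.12 (FDR 0.0175, and 0.0566 without library 75), and library 70 held its highest value at 1355 TPM. Hamp, the hepcidin gene itself, was at 0.86 (FDR 0.168). Bmp6 (0.47), Tfrc (0.51), Ftl1 (0.30) and Hfe (0.20) rose, and Tmprss6, which lowers hepcidin, was at -0.25. Of 20 clock genes, 3 rose and none fell (1 without library 70): Arntl (0.28), Cry1 (0.37) and Ciart (1.31, FDR 0.0254, and 0.0542 to 0.0692 without library 69, 75, 77 or 78). Of 8 renin-angiotensin genes, Agt, angiotensinogen, rose by 0.44 (FDR 0.000276), from 510 to 555 TPM up to 643 to 880 TPM. Ren1 was scarce, with 15 to 32 reads against 0 to 4 reads (4.69, FDR 5.33e-07).

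None of 22 interferon-stimulated genes passed in either direction by limma/voom, and Ifit1 was at -0.24 (FDR 0.719). Of 59 nuclear genes of respiratory complexes, Ndufb7 (0.19) and Atp5g1 (0.25) rose and none fell (median 0.03, and 1 fell without library 74). Both missed the threshold without library 67, 68, 69, 70, 74 or 75, Ndufb7 also without library 72 (FDR 0.0503 to 0.0706 and, for Atp5g1, 0.0518 to 0.0746), and Ndufa1 was at -0.08 (FDR 0.367). Of 26 collagen and matrix genes, Col18a1 fell (-0.20, FDR 0.0476, and 0.0609 to 0.13 without library 68, 69, 71, 72, 73, 75, 76, 77 or 78). The median of the list was -0.26, and 4 of the 26 genes were above 0. The count of falls was 0 or 1 with 1 library left out and from 0 to 10 under other processing choices. Col1a1 was at -0.76 (FDR 0.233). Of 24 proliferation genes, 3 rose and none fell (1 without library 74). Ung, uracil-DNA glycosylase, stood at 9.81 to 12.3 TPM against 3.44 to 6.97 TPM (1.19, FDR 2.2e-06), Pcna was at 0.22 and Mcm3 at 0.35 (FDR 0.0502 to 0.0736 without library 69, 70, 72, 73, 74, 75 or 77). Mki67 was at -0.14 (FDR 0.739).

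Further genes among the largest rises belonged to none of the lists. Ttyh1, an anion channel, stood at 1.31 to 4.36 TPM against 0.18 to 0.83 TPM (2.52, FDR 3.8e-07), and Tuba8, a tubulin, at 3.45 to 8 TPM against 0.48 to 1.13 TPM (2.53, FDR 2.2e-06). Gnat1, a transducin subunit, rose by 1.75 and AA986860 by 1.66. Gucy2c, the guanylin receptor, stood at 0.42 to 0.94 TPM against 0.08 to 0.13 TPM (2.53, FDR 1.29e-07). For Ntrk2, the BDNF receptor, and Mmd2 the semaglutide 20 group was the one away from vehicle. Ntrk2 had 0.71, 1.03 and 1.91 TPM against 0.1, 0.23 and 0.39 TPM and a vehicle median of 0.875 TPM, and its log2 fold change over vehicle was 0.19 (FDR 0.595) with BI 456906 30 and -2.10 (FDR 9.14e-05) with semaglutide 20. Mmd2 was at 1.96 in the contrast, 0.18 with BI 456906 30 over vehicle and -1.79 with semaglutide 20.

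Cfd, adipsin, is an adipocyte marker. It had at most 1 read in any BI 456906 30 library and 4 to 70 reads with semaglutide 20, at least 9.75-fold lower taking 3 reads per library as the floor, and the vehicle median was 11.7 TPM. The summed adipocyte markers (8 genes) were 25.6, 61.3 and 111 TPM with BI 456906 30 and 43.4, 63.1 and 86.1 TPM with semaglutide 20, with Lep and Retn at or under 3 reads in all 12 libraries. Cidec and Lipe of this sum are also counted among the lipid droplet genes. Of the 4 adipocyte markers tested, 2 fell at FDR 0.05, Cfd among them, and none rose (median -0.48). The 2 falls were 50% of those tested, beside 7.5% of all genes tested. The part of adipocyte RNA in the Cfd result was not tested. Among the study's other liver genes, Ddah1, which clears methylarginines, was at -1.17 (FDR 5.54e-05) and Prok1 at -1.53 (FDR 0.0101), with overlapping groups.

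Set against the same 6 vehicle libraries, BI 456906 30 gave 956 calls upward and 1101 downward and semaglutide 20 gave 504 and 467. The comparisons share their controls, so only the values are set side by side. For Sds, Got1, Nnmt, Mt1 and Slc7a2 both groups were above vehicle, as with log2 fold changes of 2.49 and 0.76 for Nnmt. For Pklr, Elovl6 and Fitm1 both were at negative values, as with -2.50 and -1.12 for Pklr. For Ass1 (1.28 and 0.11), Cyp7a1 (-1.88 and -0.01) and Mup20 (-2.40 and -0.14) the semaglutide 20 value was near 0. For Rgs16, Oat, Ugt1a9 and Mup19 (-6.82 and 1.97) the fitted values lay on opposite sides of vehicle. For Mup19 the semaglutide 20 value was smaller than the SE of its log2 fold change in the contrast, so it is not read as a rise over vehicle.

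**Figure D5:**
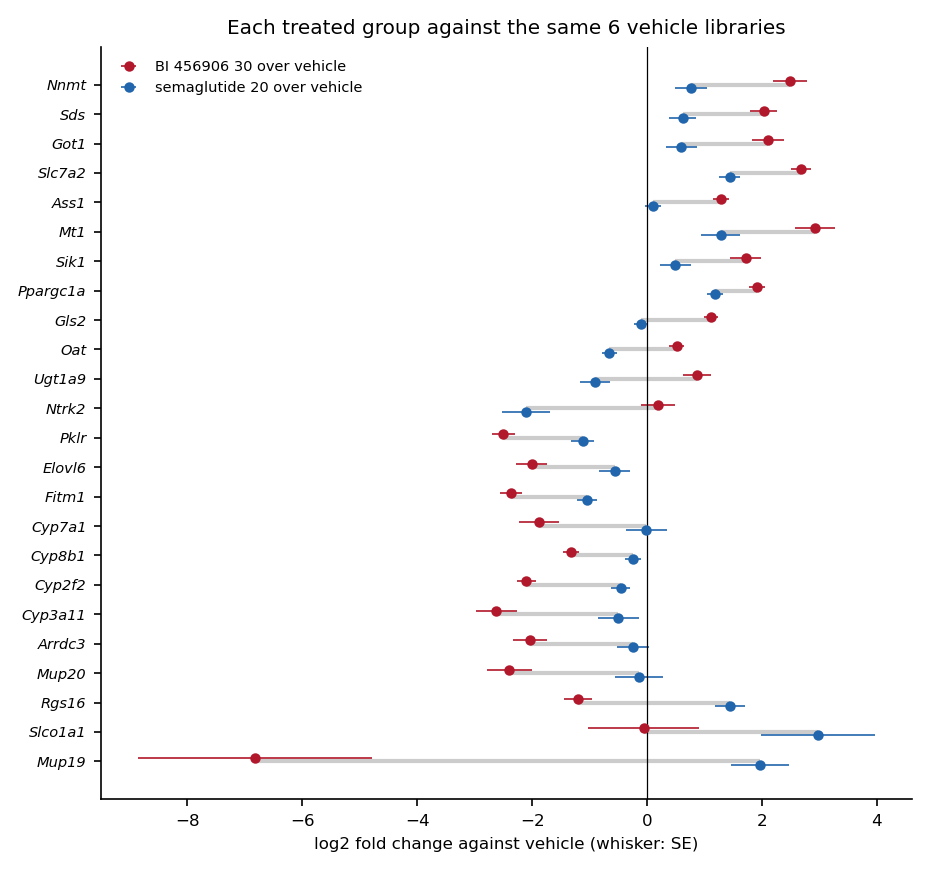
Log2 fold change over the same 6 vehicle libraries for 24 genes, BI 456906 30 in red and semaglutide 20 in blue, with the SE as a whisker and a grey bar joining the pair of values. Both values are positive for Nnmt (2.49 and 0.76), both negative for Pklr (-2.50 and -1.12), and on opposite sides of 0 for Rgs16 (-1.20 and 1.45).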

How the data were processed

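Liver RNA was sequenced in 42 libraries of 7 groups, of which 12 form the contrast. The epididymal fat libraries were not used here. The deposited gene table holds a scaled read signal, that is, gene counts that the authors divided by 1 factor per library, and whole reads were recovered for 100% of values (tolerance 0.01). A second table holds TPM, computed by the authors. The submitters' processing notes name STAR 2.5.2b, RSEM 1.3.0, featureCounts 1.5.1 and FastQC 0.11.5 and the builds mm10 and GRCm38, without roles. The labels and the methods differ on the library kit and read layout, so strandedness is not settled, and reads of overlapping antisense genes cannot be told apart.

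Symbols and coordinates were matched for 48348 of 48794 gene identifiers. Genes passing the edgeR 4.0.16 expression filter were fitted on the deposited signal with limma/voom (limma 3.58.1, TMM factors, offset 0.5, R 4.3.3), in one fit over all 7 liver groups with no covariate. In that signal the 21676902 reads of library 77 are scaled to 43071504, so the main fit did not see its low depth. The fits on recovered reads did. FDR is Benjamini-Hochberg adjusted over the 15964 genes tested. A call needed a log2 fold change of at least 1 in size and an FDR of at most 0.05. TPM are levels per length, and fold changes are from the fit. Nothing in the labels ties mice across groups, and p-values measure the spread between these libraries. No pair of libraries agreed within sampling noise. Intervals and read floors cover counting error or the fit alone.

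Named genes were the 12 largest rises and 12 largest falls among called genes whose values did not overlap, had a mean of at least 1 TPM and a proper symbol, the up to 3 members of each list with the smallest FDR, the first gene of each list, a chosen set of genes that the study names for liver (not every one of them), and near-identical copies of these genes. The 37 pathway lists and the 12 marker lists, with their gene members, were chosen with earlier results of these data known. The pipeline was tested on simulated data. Alternatives were other normalisations, filters, tests (edgeR quasi-likelihood, DESeq2 1.42.0 and voom on recovered reads), TPM in place of reads, library quality weights, the 12 libraries alone and each library left out. Promoter windows are from RefSeq (GRCm38.p6), aligned with Biopython 1.88. A few members of the lists are counted but not reported by name here.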

Additional observations from a re-analysis of the deposited data

Results flagged for a closer look

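Within each group of 6 livers, the values of every named gene were screened for 1 mouse lying far from the other 5. Of 290 such screens, 40 met the criterion (a gap to the nearest liver above Dixon's 95% critical value), and chance alone gives about 1 in 20. The values below are TPM, with the range of the other 5 livers where the gene is central to the contrast. No explanation was tested.

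Library 70 of the BI 456906 30 group accounted for 16 of the 40. It was the highest of its group for Cyp2a4 at 346, Ugt1a9 at 143, Mup15 at 0.75, Gls2 at 544, Dbt at 64.2, Gcgr at 184, Slc2a2 at 117, Pygl at 196, Cux2 at 24, Prlr at 132, Hamp2 at 1355, Ifit1 at 4.64, Ddah1 at 33.6 and Cyp2a5 at 485 TPM. It was the lowest for Mup11 at 127 and Cyp2f2 at 69.5 TPM. For Cyp2a4 the other livers lay between 44.2 and 119 TPM, for Cux2 between 1.22 and 7.75 TPM and for Cyp2f2 between 147 and 176 TPM.

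In the BI 456906 30 group, library 68 was the highest for Hsd3b5 at 1.53 TPM. Library 71 was the highest for Cfd at 0.04, Slc7a2 at 276 and Col1a1 at 4.21 TPM. Library 69 was the highest for Gbe1 at 55.6 TPM. Library 72 was the lowest for Cat at 964 TPM.

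In the semaglutide 20 group, library 78 was the highest for Cyp2a4 at 25.3 TPM. Library 73 was the highest for Mt1 at 1119, Mt2 at 1059, Mup15 at 546, Mup7 at 3450 and Saa1 at 2320 TPM. Library 77 was the highest for Mup18 at 18.1 TPM. Library 76 was the highest for Sds at 386, Gls2 at 254, Ass1 at 3340 and Slc25a15 at 157 TPM. Library 74 was the highest for Slc3a1 at 50.9, Gys2 at 167, Baat at 201, Cux2 at 1.81 and Pcna at 28.4 TPM. Library 75 was the highest for Mup20 at 10196 and Mki67 at 0.49 TPM. Library 73 lay far above the others for Saa1 (144 to 848 TPM) and Mup7 (234 to 1391 TPM), and library 76 for Ass1 (1988 to 2361 TPM).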

How the results depend on the processing

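No named gene that passed the threshold changed direction under the 23 alternatives in which it could be fitted. Cpt1a and Mki67, which did not pass, each changed sign under 1 of them. Called higher and lower were 116 and 213 as reported, and 60 and 131 with at least 10 reads in every library, 39 and 100 on log2(TPM + 1), and 74 higher on log2(TPM + 0.1). Genes passing the FDR upward at any size, 973 as reported, were 639 on log2(TPM + 1) and 616 on log2(TPM + 0.1). With library quality weights 2078 passed upward and 2105 downward. The stricter filter tested fewer genes (13019), and for the others the cause was not tested. On recovered reads edgeR made 330 calls, DESeq2 357 and voom 302. With 1 library left out, called genes ranged from 88 to 138 higher and from 162 to 250 lower, and genes passing at any size from 558 to 1145 upward and from 802 to 1343 downward. The upward count was 610 without library 68, 636 without library 75, 620 without library 77 and 558 without library 78. No paired analysis was possible because the labels give no replicate numbers shared between groups. Calls on genes under 1 TPM rest on few reads.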

Other observations

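Some of the smallest adjusted p-values of the contrast belonged to genes in none of the lists, chosen here after their values were seen, of which Nox4 is also named by the study. Gpc1, a cell-surface heparan sulfate proteoglycan, had the smallest, with a mean of 6.87 TPM with BI 456906 30, 20.6 TPM with semaglutide 20 and 27.3 TPM with vehicle (log2 fold change -1.60, FDR 3.25e-11, limma/voom). Sdc1, another heparan sulfate proteoglycan, was higher, at 204 against 119 TPM (0.80, FDR 4.52e-09). Rarres1 fell from 53.8 to 7.35 TPM (-2.80, FDR 4.51e-09). Nox4, a hydrogen peroxide-producing oxidase, fell from 16.3 to 5.99 TPM (-1.45, FDR 1.32e-08), and Col27a1, a fibrillar collagen, from 20.2 to 4.55 TPM (-2.20, FDR 1.34e-07). Csrp3, a muscle LIM protein, fell from 43 to 10.4 TPM (-2.07, FDR 3.19e-08).

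Among further genes picked the same way, Aqp8, a water channel of the canalicular membrane, was at 9.60 TPM with BI 456906 30, 57.9 TPM with semaglutide 20 and 147 TPM with vehicle (-2.48, FDR 0.000113). Srd5a1, a steroid reductase, was at 14.1 against 32.7 TPM (-1.18, FDR 0.00016). Noct, a circadian regulator, was at 27.5 against 13.8 TPM (1.06, FDR 0.000844), the retinoic acid hydroxylase Cyp26b1 at 20.5 against 9.03 TPM (1.40, FDR 0.00247) and the secreted factor Nrg4 at 23.3 against 10.6 TPM (1.12, FDR 0.00305). The groups did not overlap for any gene named in these paragraphs.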
